A study of Rattus norvegicus with 6 samples.

Results

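The genes described here carry retinol (vitamin A) or make, store and bind its products: Rbp4, Ttr, Stra6, Lrat, Bco1 (Bcmo1 on this array), Aldh1a1, Aldh1a2, Crabp1 and Crabp2. They were chosen by name, as every non-control probe whose gene name is one of these 9, of 15505 genes named on the array. The study measured total kidney RNA of young Han:SPRD rats, a strain in which the Cy allele causes a dominantly inherited polycystic kidney disease. The groups were Cy/Cy (homozygous mutant), Cy/+ (heterozygous) and +/+ (without the allele) kidneys, each at 7 and at 3 days of age, with 1 array for each genotype and age and no treatment given in the labels. All groups share the Han:SPRD background. Each array carried the pool that names it in the Cy5 channel and an age-matched +/+ pool, the reference, in the Cy3 channel, without a dye swap. RNA was pooled over animals of a genotype, and how many animals entered a pool is not given in the sources used here. Nothing in the labels says that the pools of 1 genotype at both ages came from separate litters or days, so the p-values reflect no more than how far these arrays scatter, which may be technical. In whole-kidney RNA, fewer cells of a type and less RNA per cell cannot be told apart.

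In blood, retinol travels bound to retinol-binding protein 4 (Rbp4), which is held in circulation by transthyretin (Ttr). Cells take it up through the Rbp4 receptor Stra6, and proximal tubule cells of the kidney retrieve filtered Rbp4 by endocytosis through megalin (Lrp2). Lrat esterifies retinol for storage, and Bco1 cleaves beta-carotene to retinal. Retinal is oxidised to retinoic acid by Aldh1a1 and Aldh1a2. Crabp1 and Crabp2 bind retinoic acid inside cells, and Crabp2 delivers it to nuclear receptors. Retinoic acid made by the stroma of the developing kidney acts on the branching ureteric bud, where it maintains the receptor tyrosine kinase Ret.

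The array read each gene through probes of 60 bases, 11 in all for the 9 genes, and 10 of the 11 passed the filter on dim probes (brighter than background by the software's test, in Cy5 or in Cy3, on 2 arrays or more). The 8 probes on which the comparisons turn are shown as the array file lists them, in lower case with no bases marked, whole or by their first 30 bases. Lrat and Bco1 are shown with both of their probes because these disagreed. Positions are those of rat build rn3 in the file headers, and exon, intron and UTR were not annotated in the sources used here.
Rbp4, the first 30 bases of chr1:242637284-242637343: ctcccttctctaggtggacattaaaaccat
Ttr, chr18:12434403-12434462: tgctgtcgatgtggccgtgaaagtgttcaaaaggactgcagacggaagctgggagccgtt
Stra6, chr8:61955949-61956008: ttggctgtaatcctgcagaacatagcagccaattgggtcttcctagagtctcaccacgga
Lrat, probe A_44_P491942, chr2:174594869-174594928: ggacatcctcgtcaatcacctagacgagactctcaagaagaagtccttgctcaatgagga
Lrat, probe A_44_P550748, the first 30 bases of chr2:174586647-174586706: ttctgtttgctatttcatattgttcatgtc
Bco1, probe A_44_P222122, chr19:47240266-47240325: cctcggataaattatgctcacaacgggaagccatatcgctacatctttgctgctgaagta
Bco1, probe A_44_P474388, the first 30 bases of chr19:47207759-47207818: atacgaattggaagttctattggtaagact
Crabp2, the first 30 bases of chr2:179984104-179984163: ccagagaggggcagactaccaaagctcaga
The Lrat probes start 8222 bases apart and the Bco1 probes 32507 bases apart. The probes of Aldh1a1 (chr1:223936881-223936940), Aldh1a2 (chr8:75790115-75790174) and Crabp1 (listed over chr8:58339877-58344185) are not shown.

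Between 65.0% and 70.0% of the 43379 non-control spots were well above background in Cy3, and between 66.8% and 74.8% in Cy5. The 3 arrays of 7 days lay on 1 slide and the 3 of 3 days on another, and each genotype kept 1 position on both. Age thus cannot be told apart from slide, nor genotype from position on the slide. The 2 arrays labelled +/+ went against their label: both of their channels are labelled +/+ kidney, yet 12.3% of probes differed by 2-fold or more between Cy5 and Cy3 on both. The log2 ratio had an SD over all probes of 0.825 (7 days) and 0.964 (3 days) there, against 0.146 and 0.163 on the Cy/Cy arrays and 0.211 and 0.282 on the Cy/+ arrays. Genes that mark liver had a median log2 ratio of 4.48 and 4.75 on the arrays labelled +/+, with 13 of 14 well above background in Cy5 and also in Cy3. On the mutant arrays 10 to 12 of the 14 were well above background in each channel. Genes of the proximal tubule had medians of -2.35 and -2.96 on the arrays labelled +/+, with 9 of 10 well above background in Cy5. In Cy3 all 10 proximal tubule genes were well above background on all 6 arrays. The mutants were therefore set against the reference on their own array, and comparisons of mutants with the arrays labelled +/+ are given apart. The Cy3 values of the arrays labelled +/+ did enter the comparisons of age over the pools and over all 6 arrays.

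Set against their own reference, Cy/Cy kidneys showed no member past the test, and Cy/+ kidneys showed Stra6 higher and 1 of 2 Bco1 probes lower, with log2 differences of 0.38 and -0.49. These calls depended on the scaling: with each array centred on its median in place of loess, Aldh1a1, Aldh1a2 and Crabp2 passed the test as higher in both mutants, and the other Bco1 probe in Cy/+. In the reference channel of the mutant arrays Rbp4 was 6.18-fold lower at 7 days than at 3 days, and Crabp2 was 2.06-fold higher. There 0.589% of probes changed by 2-fold or more without overlap between ages. With the arrays labelled +/+ included, where Rbp4 changed by a log2 of only -0.05, its change was -1.77 with overlap and was not called. Crabp2 was still called, beside 0.527% of probes. The ratio of mutant to reference for Rbp4 also differed between the ages, which lay on separate slides. It was below 0 in both mutants at 3 days and above 0 in both at 7 days. On both arrays labelled +/+ Ttr, Aldh1a1, Rbp4, Crabp1 and Aldh1a2 differed by 2-fold or more between channels, where 12.3% of all probes did. Crabp2 did so only at 3 days. Tests used limma's moderated fit over all probes that passed the filter, with Benjamini-Hochberg adjustment and a threshold of 0.05. For Cy/Cy against its reference 0% of 30932 probes were called (2676 had an unadjusted p under 0.05), for Cy/+ 7.86% of 30928, and between the mutants 0% (1890 unadjusted). The other settings tried gave 0 to 13276 calls for Cy/Cy, 0 to 15402 for Cy/+ and 0 to 211 between the mutants. The highest counts came from median centring for Cy/Cy and Cy/+ and from leaving out the 7-day Cy/+ array for the difference between mutants.

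**Figure D1:**
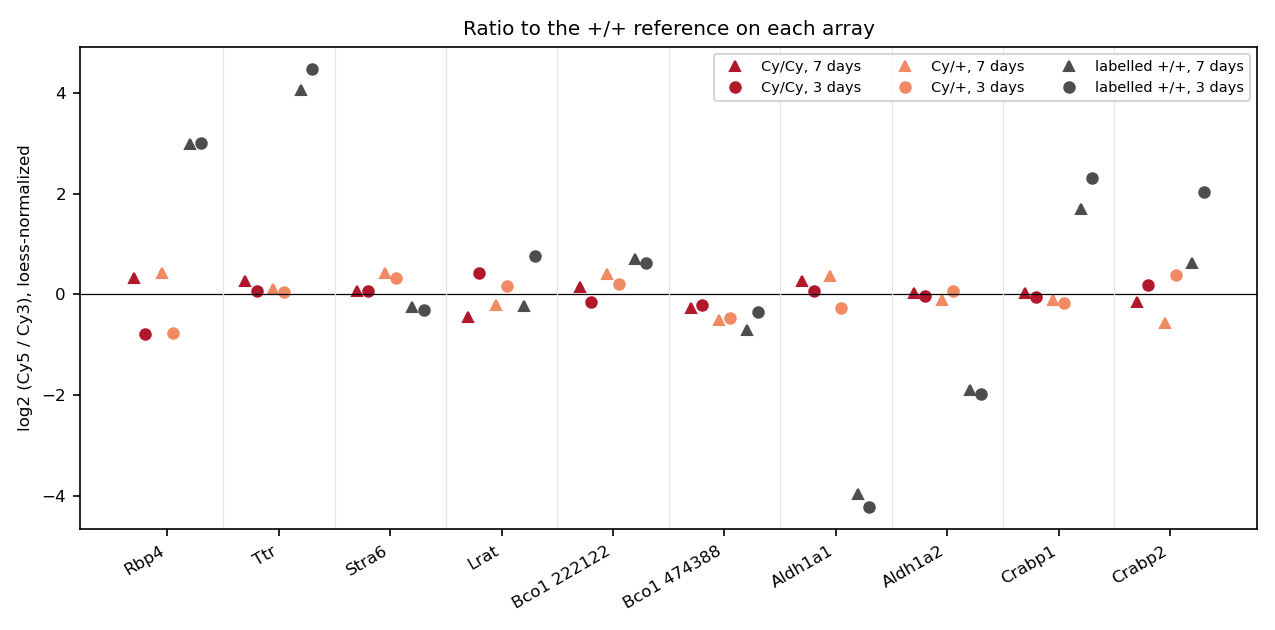
Log2 ratio of Cy5 to Cy3 for the 10 probes that passed the filter, by array. Triangles are 7 days and circles 3 days, with Cy/Cy left, Cy/+ in the middle and the arrays labelled +/+ right. The mutant points of all probes lie between -0.78 and 0.43, while the arrays labelled +/+ reach 4.48 for Ttr and -4.23 for Aldh1a1.

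Rbp4, the plasma carrier, was lower at 7 days. At 7 days its log2 signal was 8.75 in Cy/Cy Cy5 and 8.85 in Cy/+ Cy5, against 8.43 and 8.42 in the reference on those arrays. At 3 days it was 10.25 in Cy/Cy Cy5 and 10.29 in Cy/+ Cy5, against 11.03 and 11.07 in the reference. Every 7-day value lay below every 3-day value, in both dyes. The scanner's own brightness, before any correction, gave the reference 204 and 200 units at 7 days against 1870 and 2100 at 3 days. The log2 change in Cy3 was -2.63 on the mutant arrays, the third lowest of 30925 probes with a value. There 0.589% of probes were called (a mean change of 2-fold or more without overlap between ages). In Cy5 the change was -1.51 in Cy/Cy and -1.44 in Cy/+. For the test over pools, the reference of an age was the mean of its 3 Cy3 values, that of the array labelled +/+ included. Over the 3 pools, each taken as 1 value per age with the pool as a block, Rbp4 was lower at 7 days by a log2 change of -1.57 ± 0.088 (SE, adjusted p = 0.00977, limma), where 8.11% of probes were called. That call was lost with the software's processed signals (adjusted p = 0.0528), without the block (0.111), without the reference pool (0.0645) and with the reference read only from the arrays labelled +/+ (0.106). With the reference read only from the mutant arrays it held (log2 change -1.86, adjusted p = 0.0203).

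The reference on the arrays labelled +/+ differed by far less, with a log2 change of -0.05. Rbp4 there had a log2 Cy3 signal of 12.97 at 7 days against 13.02 at 3 days, 23.3-fold and 3.91-fold above the reference on the mutant arrays of the same age. Cy5 on those arrays was 15.96 at 7 days against 16.03 at 3 days. With all 6 arrays the change in Cy3 was -1.77, with overlap between ages, and was not called. The raw Cy3 brightness was 6.31% of the raw Cy5 brightness at 7 days and 4.37% at 3 days. Over all probes 1.47% at 7 days and 1.05% at 3 days differed by 2-fold or more in Cy3 between the array labelled +/+ and the mutant arrays. Of those that were higher, 411 of 432 at 7 days and 283 of 300 at 3 days were also 2-fold or more higher in Cy5 than in Cy3 on the array labelled +/+. The part of the Cy5 signal in these Cy3 values was not tested.

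The distance between mutant and reference for Rbp4 turned round between the ages, which lay on separate slides. At 7 days the log2 ratio was 0.32 in Cy/Cy and 0.43 in Cy/+, and at 3 days it was -0.78 in Cy/Cy and -0.78 in Cy/+. The 4 values separated by age and not by genotype. The ratio at 7 days exceeded that at 3 days by 1.15 ± 0.10 (log2, SE, adjusted p = 0.0445, limma), one of 14 probes or 0.0453% called. With the software's log ratio the difference was 1.26 and its adjusted p 0.633. In terms of signal on the mutant arrays, Rbp4 was lower at 7 days in both mutants and in the reference, by more in the reference than in either mutant. That order did not hold for the reference read on the arrays labelled +/+. Averaged over ages, it differed from the reference by -0.23 ± 0.32 in Cy/Cy (adjusted p = 0.844) and -0.17 ± 0.32 in Cy/+ (0.766), means that hold values of opposite sign.

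**Figure D2:**
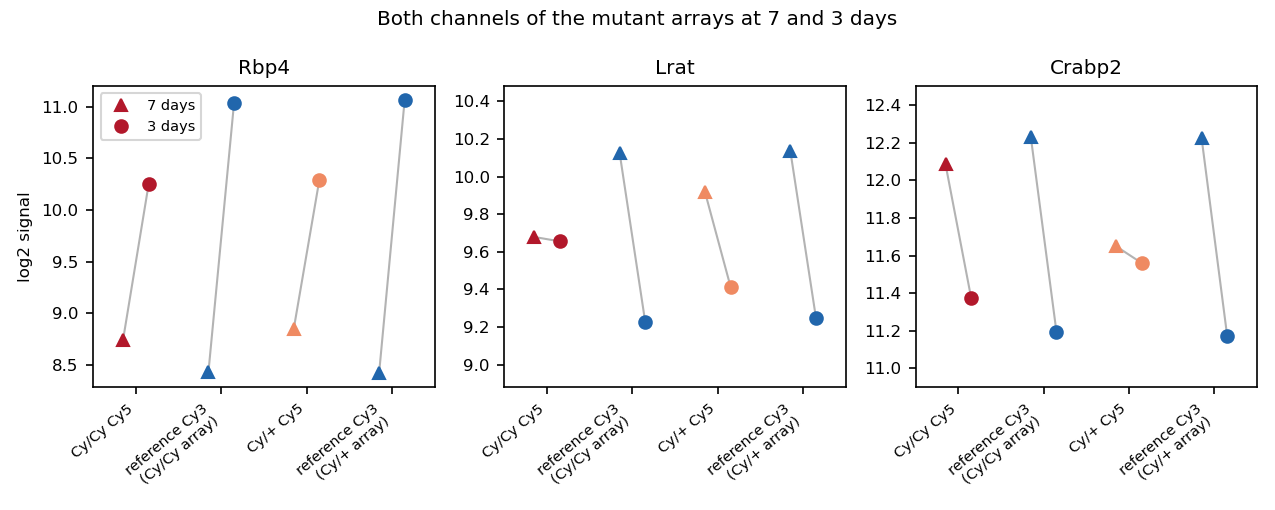
Log2 signal of Rbp4, Lrat (A_44_P550748) and Crabp2 in both channels of the mutant arrays, with 7 days (triangle) left of 3 days (circle) and a grey line joining the ages of 1 channel. Red is Cy/Cy Cy5, orange Cy/+ Cy5 and blue the +/+ reference in Cy3. The 2 ages lie further apart in blue than in red or orange in each panel. For Rbp4 the log2 change is -1.51 in Cy/Cy and -1.44 in Cy/+, against -2.63 in the reference.

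Ttr, the partner of Rbp4 in plasma, was at background in the mutant kidneys and in their reference. Its log2 Cy5 signal was 6.61 in Cy/Cy and 6.24 in Cy/+ at 7 days, and 6.18 in Cy/Cy and 6.19 in Cy/+ at 3 days. In the reference of the mutant arrays it lay between 6.12 and 6.35. Of these 8 values only Cy/Cy Cy5 at 7 days was well above background. On the arrays labelled +/+ Ttr stood at 15.07 at 7 days and 14.55 at 3 days in Cy5, and at 11.01 and 10.07 in Cy3. Their Cy5 was at least 387-fold above that of Cy/+ and at least 395-fold above the reference of the mutant arrays, and the second of these bounds, across dyes, is open to dye bias without a dye swap. Ttr is also a gene of liver and choroid plexus, and on the arrays labelled +/+ it was high together with the liver genes described above. At 7 and 3 days there, genes of skeletal muscle (3.98 and 4.26), skin (3.87 and 4.26), adipose (4.02 and 3.92) and intestine (3.13 and 3.20) also had high median log2 ratios. Choroid plexus and eye genes had a median of 0.04 on both but were split. Of the 6 that passed the filter, 2 were 2-fold or more higher on both arrays and 2 lower. The part of any of these tissues in the Ttr value was not tested.

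Stra6, the cell-surface receptor for Rbp4, was higher in Cy/+ kidneys. At 7 days its log2 ratio was 0.07 in Cy/Cy and 0.43 in Cy/+, and at 3 days 0.06 in Cy/Cy and 0.32 in Cy/+. Both Cy/+ values exceeded both Cy/Cy values. Cy/+ was higher than its reference by 0.38 ± 0.073 (log2, SE, adjusted p = 0.0354, limma), and Cy/Cy differed by 0.06 ± 0.073 (0.809). Cy/Cy minus Cy/+ was -0.31 ± 0.10 with an adjusted p of 0.804 (0.0205 unadjusted), so a difference between the mutants was not shown. The probe was dim, with raw signals of 118 and 147 units in Cy5 of Cy/Cy and Cy/+ at 7 days against 81.2 and 78.7 in their reference. The Cy/+ call was lost with the software's log ratio (0.67, adjusted p = 0.133) and when any 1 of the 4 arrays was left out (adjusted p from 0.0733 to 0.0958), with the sign kept each time. Age gave a log2 change of -0.22 in the reference of the mutant arrays and -0.17 ± 0.069 over the pools (adjusted p = 0.159). Adipose genes had a median log2 ratio of 0.54 on the Cy/Cy array and -0.10 on the Cy/+ array at 7 days, and of 0.52 on the Cy/Cy array and 1.83 on the Cy/+ array at 3 days. The part of other cell types in the Stra6 value was not tested.

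Lrat, which esterifies retinol, had 2 probes, of which 1 gave a signal. The probe A_44_P491942 was not well above background in either channel on any array. The probe A_44_P550748 was well above background in both channels of all 6 arrays. In Cy3 it stood at 10.13, 10.14 and 10.01 at 7 days on the Cy/Cy, Cy/+ and labelled +/+ arrays, against 9.23, 9.25 and 9.05 at 3 days. The ages did not overlap, and the log2 change was 0.91, short of the 2-fold called here. With the software's signals the change was 1.02 without overlap and was called, as were 841 probes in that setting. The share of all probes without overlap was not counted. In Cy5 the change was 0.02 in Cy/Cy and 0.50 in Cy/+, and over the pools 0.48 ± 0.16 (adjusted p = 0.118). The log2 ratio was -0.45 in Cy/Cy and -0.22 in Cy/+ at 7 days, and 0.43 in Cy/Cy and 0.16 in Cy/+ at 3 days. The signs were opposite at the 2 ages in both mutants, but the difference of -0.63 ± 0.14 did not pass the test (adjusted p = 0.287). With the other probe dark, these values are those of A_44_P550748, and no statement on the whole gene is made from them.

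Bco1, which forms retinal from beta-carotene, was read by 2 probes that disagreed in sign in Cy/+. With A_44_P474388 the log2 ratio was -0.26 in Cy/Cy and -0.50 in Cy/+ at 7 days, and -0.21 in Cy/Cy and -0.47 in Cy/+ at 3 days. All 4 were below 0, with Cy/+ lower than Cy/Cy at each age. Cy/+ was lower than its reference, with a log2 difference of -0.49 ± 0.071 (adjusted p = 0.0208, limma), and Cy/Cy gave -0.24 ± 0.071 (0.514). The Cy/+ call was lost with median centring (-0.19, adjusted p = 0.164), with the software's log ratio (-0.62, 0.121) and without the 3-day Cy/+ array (0.0534). With A_44_P222122 the log2 ratio was 0.15 in Cy/Cy and 0.40 in Cy/+ at 7 days, and -0.16 in Cy/Cy and 0.20 in Cy/+ at 3 days. Cy/+ differed from its reference by 0.30 ± 0.099 there (adjusted p = 0.108), and was called with an age term (0.30, 0.0392) and with median centring (0.35, 0.0232). Over the whole array those settings called 4854 and 15402 probes in Cy/+.

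The Bco1 probes also differed over age. In Cy3, A_44_P474388 stood at 9.44, 9.36 and 9.63 at 7 days on the Cy/Cy, Cy/+ and labelled +/+ arrays, against 8.45, 8.82 and 8.52 at 3 days. The log2 change was 0.88 without overlap, under the 2-fold called here, and the share of all probes without overlap was not counted. Over the pools it was higher at 7 days by 0.77 ± 0.10 (adjusted p = 0.0231), a call that was lost without the Cy/Cy pool (0.0825), without the reference pool (0.170), without the block (0.0616) and with the software's signals (0.0528). The log2 change of A_44_P222122 was -0.06 in Cy3, with overlap, and 0.08 ± 0.081 over the pools (adjusted p = 0.567). No statement on the whole gene can be made from probes that differ in this way.

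Aldh1a1 and Aldh1a2, the enzymes that make retinoic acid, were not called in either mutant after loess. For Aldh1a1 the log2 ratio was 0.27 in Cy/Cy and 0.37 in Cy/+ at 7 days, and 0.07 in Cy/Cy and -0.27 in Cy/+ at 3 days. The log2 ratios of Aldh1a2 were 0.03 in Cy/Cy and -0.12 in Cy/+ at 7 days, and -0.03 in Cy/Cy and 0.08 in Cy/+ at 3 days. After loess neither passed a test of genotype: Aldh1a1 gave 0.17 ± 0.15 in Cy/Cy (adjusted p = 0.75) and 0.05 ± 0.15 in Cy/+ (0.853), and Aldh1a2 gave -0.02 ± 0.080 in Cy/+ (0.894) and a difference nearer to 0 in Cy/Cy (0.996). With median centring all 4 were called: Aldh1a1 gave 0.81 in Cy/Cy (adjusted p = 0.00312) and 0.82 in Cy/+ (0.00102), and Aldh1a2 gave 0.39 in Cy/Cy (0.0162) and 0.45 in Cy/+ (0.00524). That centring also moved the median of all probes, to 0.17 in Cy/Cy and 0.19 in Cy/+. It called 13276 of the 30934 filtered probes in Cy/Cy and 15402 in Cy/+. Over the pools the log2 change from age was 0.06 ± 0.13 for Aldh1a1 (adjusted p = 0.772) and 0.20 ± 0.069 for Aldh1a2 (0.122). In Cy3 Aldh1a1 was 14.53, 14.47 and 14.87 at 7 days on the Cy/Cy, Cy/+ and labelled +/+ arrays, against 14.72, 14.69 and 15.15 at 3 days. On every array the reference was bright for Aldh1a1, and the ages overlapped.

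On the arrays labelled +/+ both enzymes ran far below their reference. The log2 ratio of Aldh1a1 was -3.96 on the 7-day array and -4.23 on the 3-day array, and that of Aldh1a2 -1.90 and -1.98. These went with the low medians of the proximal tubule genes (-2.35 and -2.96) and of the glomerular epithelium genes (-2.04 and -2.13) on those arrays. Renal stroma genes ran the other way there, with medians of 1.48 and 1.26. The part of cell makeup in them was not tested.

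Crabp2, which hands retinoic acid to its receptors, was the only member called over age in Cy3 with all 6 arrays after loess. It stood at 12.23 on all 3 arrays at 7 days, against 11.19, 11.18 and 11.20 at 3 days on the Cy/Cy, Cy/+ and labelled +/+ arrays. The log2 change was 1.04 or 2.05-fold, where 0.527% of 30927 probes were called (2-fold or more without overlap), 95 higher and 68 lower. From the top its rank was 104 of 30928. With the software's signals the change of Crabp2 was 1.01 and that of Lrat A_44_P550748 1.02, and both were called. In Cy5 the change was 0.71 in Cy/Cy and 0.09 in Cy/+, and over the pools 0.61 ± 0.17, not called (adjusted p = 0.0831). Without the Cy/+ pool it was 0.87 and called (0.00959). The log2 ratio was -0.14 in Cy/Cy and -0.58 in Cy/+ at 7 days, and 0.18 in Cy/Cy and 0.39 in Cy/+ at 3 days. As for Lrat, the sign changed with age in both mutants, and the difference of -0.64 ± 0.16 did not pass the test (adjusted p = 0.312). Averaged over ages, Crabp2 was not called after loess (adjusted p = 0.984 in Cy/Cy and 0.800 in Cy/+) and was with median centring (0.44 in Cy/Cy, 0.0329, and 0.40 in Cy/+, 0.0382). Median centring called 13276 of the 30934 filtered probes in Cy/Cy and 15402 in Cy/+.

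Crabp1, the other carrier of retinoic acid, was higher at 7 days by less than Crabp2 in Cy3. In Cy3 it stood at 8.26, 8.26 and 8.33 at 7 days on the Cy/Cy, Cy/+ and labelled +/+ arrays, against 7.86, 7.90 and 7.93 at 3 days. The ages did not overlap, but the log2 change of 0.39 was under 2-fold, and the share of all probes without overlap was not counted. Cy5 gave 0.47 in Cy/Cy and 0.42 in Cy/+, and over the pools Crabp1 was higher at 7 days by 0.43 ± 0.068 (adjusted p = 0.0294, limma). The call was lost with the software's signals (0.0582), without the block (0.0540), without the reference pool (0.203), without the Cy/Cy pool (0.105) and with the reference read only from the arrays labelled +/+ (0.0565). The log2 ratios of the mutants were 0.02 in Cy/Cy and -0.11 in Cy/+ at 7 days, and -0.05 in Cy/Cy and -0.17 in Cy/+ at 3 days, and neither genotype passed the test (adjusted p = 0.964 in Cy/Cy and 0.245 in Cy/+).

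**Figure D3:**
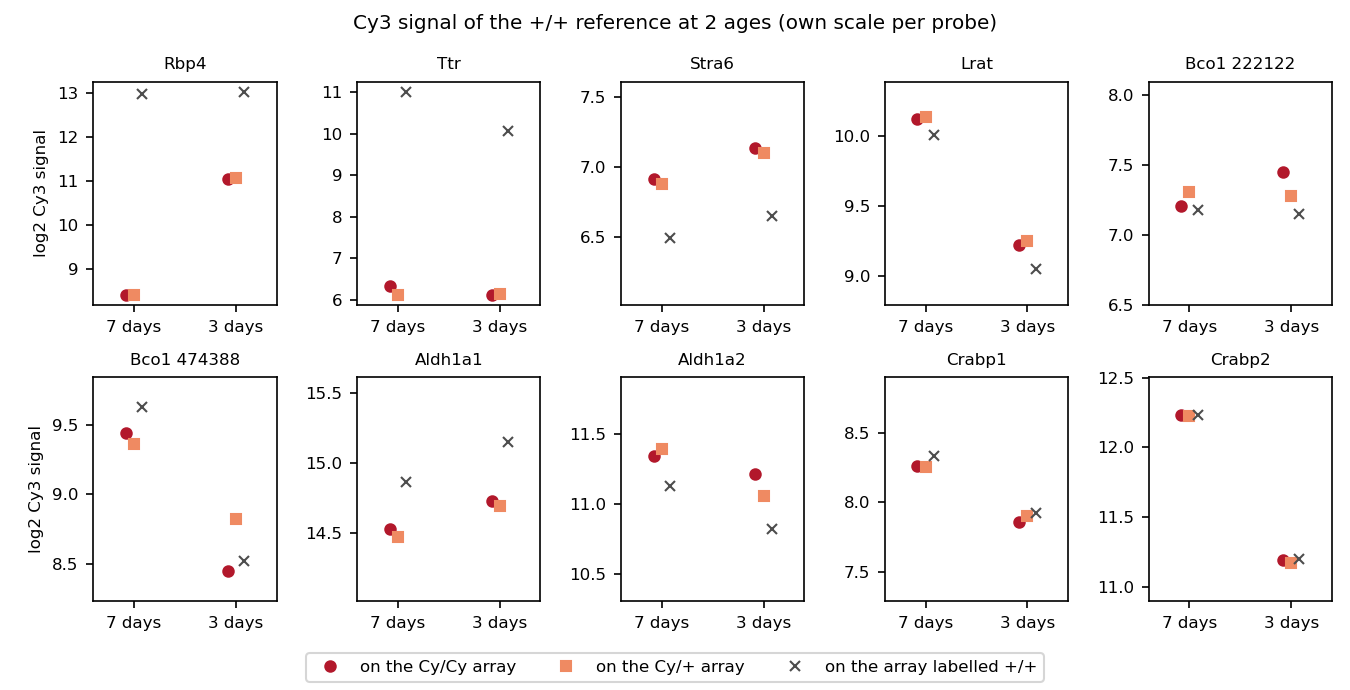
Log2 Cy3 signal of the +/+ reference for the 10 probes that passed the filter, each panel on its own scale, with 7 days left of 3 days. Circles are the Cy/Cy arrays, squares the Cy/+ arrays and crosses the arrays labelled +/+. Crabp2, Lrat, Bco1 A_44_P474388 and Crabp1 are higher at 7 days without overlap between ages, and the share of all probes without overlap was not counted. Aldh1a2 is also higher at 7 days on each kind of array, with overlap. Rbp4 changed by -2.63 on the mutant arrays and -0.05 on the arrays labelled +/+, and the crosses stand far apart for Rbp4 and Ttr.

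When the ratio on the arrays labelled +/+ was subtracted, as the layout of the study allows, 28.9% of probes were called for Cy/Cy and 29.6% for Cy/+. Of the 10 member probes 7 were called in each, with Ttr among them. Lower in both mutants were Rbp4 (-3.24 ± 0.32 in Cy/Cy and -3.18 ± 0.32 in Cy/+), Crabp1 (-2.01 and -2.14) and Crabp2 (-1.31 and -1.43), with adjusted p-values from 0.00157 to 0.0173 (limma). Ttr was also called in both (-4.11 and -4.19), but without the arrays labelled +/+ it would not have passed the filter on dim probes. Its test against those same arrays is therefore no support, and its level in the mutants is known only as a bound. Higher in both were Aldh1a1 (4.26 and 4.15) and Aldh1a2 (1.94 and 1.92). In addition Bco1 A_44_P222122 was lower in Cy/Cy (-0.67 ± 0.12, adjusted p = 0.0132) and Stra6 was higher in Cy/+ (0.65 ± 0.11, 0.0115). The Bco1 call was lost when either Cy/Cy array was left out (adjusted p = 0.0857 without 7 days and 0.167 without 3 days), and the Stra6 call when either Cy/+ array was left out (0.109 and 0.0962). The Crabp2 calls were lost without the age term (0.111 in Cy/Cy and 0.0875 in Cy/+), in Cy/Cy without its 3-day array (0.107) and in Cy/+ when either of its arrays was left out (0.100 and 0.0960). With the software's log ratio Stra6 (adjusted p = 0.0153) and Bco1 A_44_P474388 (0.0338) were also called in Cy/Cy, as higher. These differences share the arrays labelled +/+, and the mutants' own ratios to the reference, given above, were between -0.78 and 0.43. On the arrays labelled +/+ themselves the log2 ratio at 7 and 3 days was 2.99 and 3.01 for Rbp4, 1.69 and 2.31 for Crabp1, 0.63 and 2.03 for Crabp2, -0.24 and -0.31 for Stra6, -0.22 and 0.77 for Lrat, 0.70 and 0.63 for Bco1 A_44_P222122 and -0.72 and -0.35 for Bco1 A_44_P474388.

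Other genes of the pathway were taken from lists of retinol carriers, uptake, esterification, oxidation, retinoic acid breakdown and retinoic acid response. They held 55 genes, of which 49 were on the array and 44 passed the filter (Rdh16 and Rdh2 share a probe and count as 1). In Cy/+ 6 of the 44 were higher than the reference and none lower, beside 7.86% of all probes. The genes were the endocytosis receptors Lrp2 and Cubn, the lipoprotein lipase Lpl, the lipid scavenger receptor Cd36, the retinol dehydrogenase Rdh16 and the transglutaminase Tgm2. The median log2 difference of the 44 was 0.08, against 0.0046 over all probes. With the software's log ratio none of the 44 was called, nor was any other probe, and without the 3-day Cy/+ array only Cubn and Rdh16 remained called. With median centring 25 were higher and 5 lower in Cy/Cy, and 25 higher and 2 lower in Cy/+. Of the 30934 probes that passed the filter, that setting called 13276 in Cy/Cy and 15402 in Cy/+.

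For Lrp2, which brings filtered Rbp4 back into the proximal tubule, the log2 ratio was 0.25 in Cy/Cy and 0.76 in Cy/+ at 7 days, and 0.83 in Cy/Cy and 0.97 in Cy/+ at 3 days. All 4 were above 0, and the Cy/+ mean was 0.87 ± 0.14 (adjusted p = 0.0247). Rdh16 was similar in both mutants, with 0.53 in Cy/Cy and 0.77 in Cy/+ at 7 days, 0.51 in Cy/Cy and 0.62 in Cy/+ at 3 days, and a Cy/+ mean of 0.69 ± 0.076 (adjusted p = 0.0107). Cubn gave 0.51 ± 0.11 in Cy/+ (0.0434), Lpl 0.63 ± 0.085 (0.0177), Cd36 0.84 ± 0.13 (0.0243) and Tgm2 0.42 ± 0.093 (0.0446). Lpl and Cd36 are also expressed by fat cells, whose marker genes had a median of -0.10 in Cy/+ at 7 days and 1.83 at 3 days. In Cy/+ Lpl was at 0.52 and Cd36 at 0.68 at 7 days, and at 0.74 and 1.00 at 3 days. Urothelium (1.32) and skin (1.22) genes also had raised medians on the 3-day Cy/+ array. Proximal tubule genes had a median of 0.08 in Cy/+ at 7 days and -0.41 at 3 days, with 3 of 10 called higher and 1 lower. The part of these cells was not tested. In Cy/Cy none of the 44 was called after loess, and the values were 0.54 ± 0.14 for Lrp2 (adjusted p = 0.484) and 0.52 ± 0.076 for Rdh16 (0.270). Between the mutants none was called either.

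**Figure D4:**
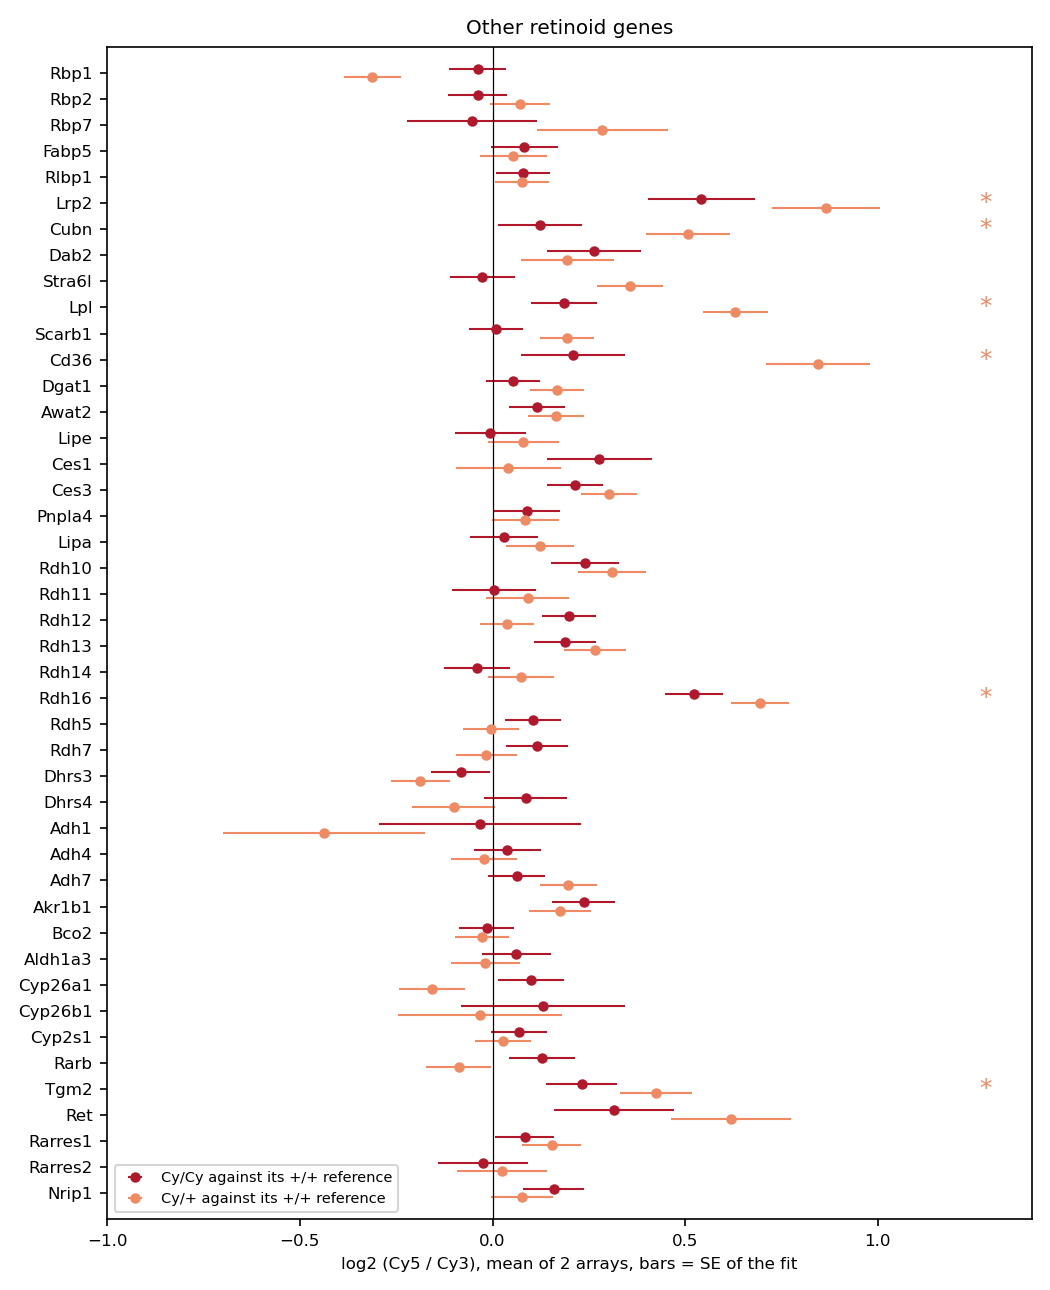
Mean log2 ratio to the own reference (2 arrays, bars are the SE of the fit) for the 44 other retinoid genes, with Cy/Cy in red above Cy/+ in orange. Stars mark the 6 genes called in Cy/+. They lie between 0.42 (Tgm2) and 0.87 (Lrp2), and none of the Cy/Cy points was called.

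Over age, 5 of the 44 passed the test over the pools, beside 8.11% of all probes. Higher at 7 days were Ret, the receptor of the ureteric bud tip (2.01 ± 0.16, adjusted p = 0.0151), the retinol dehydrogenase Dhrs4 (0.63 ± 0.083, 0.0231), the retinoic acid hydroxylase Cyp26a1 (0.48 ± 0.083, 0.0323) and the carotenoid dioxygenase Bco2 (0.31 ± 0.068, 0.0490). Rarres1 was lower (-0.44 ± 0.078, 0.0334). None of the 44 was called with the software's signals or without the reference pool, only Ret without the Cy/Cy pool, and only Ret and Dhrs4 without the block or with the reference read from the arrays labelled +/+. Only Ret also passed 2-fold in Cy3, with a log2 change of 2.25 over all 6 arrays and 2.21 on the mutant arrays. None of the 44 was called in the comparison of ratios between ages. On the arrays labelled +/+ 13 of the 44 were 2-fold or more higher in Cy5 on both and 6 lower, beside 12.3% of all probes in either direction. Among them were the carriers Rbp2 (log2 ratio 3.99 at 7 days and 4.25 at 3 days), Rbp7 (3.16 and 3.39) and Fabp5 (3.11 and 4.26) on the high side and Lrp2 (-4.25 and -4.75) on the low side. Against those arrays 12 of the 44 were called higher and 16 lower in Cy/Cy, beside 28.9% of all probes. In Cy/+ 10 were called higher and 18 lower, beside 29.6%.

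The genes whose signal ran most like that of each member were found by Pearson's r over 10 channel values, Cy3 of all 6 arrays and Cy5 of the 4 mutant arrays, among 14097 named genes with the same detection. The 10 values share slides, pools and arrays, so the r is a description. For Rbp4 they were Hspb1 (0.981), Apoc2 (0.977) and Art3 (0.976). For Crabp2 they were Lsamp (0.983), Ubn1 (0.980) and Lyar (0.977), and for Crabp1 Nop56 (0.989), H2ac18 (0.978) and H2ac25 (0.977). Stra6 ran most like Efemp1 (0.984), Rars1 (0.982) and Ccdc181 (0.981), and Lrat A_44_P550748 like Isy1 (0.978), Setsip (0.975) and Ccdc34 (0.973). For Bco1 A_44_P474388 the 3 were Nup35 (0.966), Txnl1 (0.966) and H2ac18 (0.963), and for Aldh1a2 Ppp1r2l1 (0.977), Zfp260 (0.977) and Zfp638 (0.976). Aldh1a1 had the weakest likeness, with Ivns1abp (0.894), Pgrmc1 (0.884) and MGC116197 (0.883). On the 8 values of the mutant arrays alone, a choice made after seeing the data, the r for the genes like Rbp4 was 0.967, 0.955 and 0.953 in the same order. For Aldh1a1 it was 0.764, 0.920 and 0.719, and for the genes named with the other 6 members it was between 0.95 and 0.986.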

How the data were processed

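Kidney RNA pools of 3 genotypes at 2 ages were read on 6 two-colour arrays with Cy5 for the named pool and Cy3 for the +/+ reference, with groups taken from the labels. The deposited mean signals and backgrounds are intensity values from Agilent Feature Extraction 9.5.1.1, per the file headers, without normalization, and the deposited processed signals are intensity after the software's own background and dye correction. As deposited, log ratios are log10 values (red processed signal divided by green), per the file headers. The authors' values for the whole series held the same log10 values (largest difference 0), so scale and direction are known, and its median was -0.0159 on 1 array (labelled +/+, 3 days) and 0 on the rest. The series text names another software version than the headers, which were followed.

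In R 4.3.3 with limma 3.58.1, deposited intensity values were corrected by normexp (offset 50), normalized by loess within arrays (control spots and outlier flags at weight 0) and, for single channels, by Aquantile, on the log2 scale. The filter kept 30934 of 41012 probes: those the software called well above background, in Cy5 or Cy3, on 2 or more arrays. Names came from accession (10735 probes), symbol (5577) or synonym (3730), looked up in RefSeq's genes for GRCr8, and 20970 probes had no match. Mutant ratios were tested against 0 (genotype means over 4 arrays, 2 residual degrees of freedom, 1 for the comparison between ages), against the arrays labelled +/+ (6 arrays, age as a term), and between ages with genotype as a term. In a test against 0 the spread of the control pool itself is missing. Pools were tested over age with the pool as a block, pairing the ages of 1 genotype by label. The reference pool was the mean of Cy3 over all arrays of an age, the array labelled +/+ included. Cy3 over age had no test. The mutant ratio fit was run on simulated data with log2 changes of 1 and 2 added to Cy/Cy, and smaller changes were not tried. The members, the lists and the rule for named genes were chosen with earlier results of these data known. That rule was to name all member probes, listed genes that passed a test or 2-fold in Cy3, and the 3 genes most like each member. Alternatives changed background correction, normalization, filter, terms and arrays. The precision is limited by the number of arrays.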

Additional observations from a re-analysis of the deposited data

Results flagged for a closer look

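For 3 members both mutants stood on one side of their reference at 7 days and on the other at 3 days. The ratio of Rbp4 at 7 days exceeded that at 3 days by 1.15 (log2), which passed the test (adjusted p = 0.0445, limma, over the 4 mutant arrays). For Lrat A_44_P550748 the difference was -0.63 (adjusted p = 0.287) and for Crabp2 it was -0.64 (adjusted p = 0.312), and neither passed. All 3 were picked because the mutant values changed sign with age, and since each age was on 1 slide, age and slide cannot be told apart.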

How the results depend on the processing

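Of 832 comparisons of a member with its value under another setting, 725 kept their result. The call was lost in 34 and gained in 14, the sign changed in 45, and 14 without a test moved by their SD or more. For tested comparisons a kept result means the same direction and call. For those without a test it means a change of less than the SD, whether or not the call held. The series table repeats the software's log ratio and was counted beside it. For changes in counts of calls and in sign, the cause was not tested. Cy/Cy against its reference had 13276 calls with median centring, 2 without the filter on dim probes, 2 with only probes above background everywhere, 15 with an age term and 0 to 60 when 1 array was left out. Cy/+ against its reference had 0 calls with the software's log ratio and 0 with the series table, 15402 with median centring, 4854 with an age term and 797 to 3215 with 1 array left out. Cy/Cy minus Cy/+ had 9 with median centring and 0 to 211 with 1 array left out. Against the arrays labelled +/+, leaving out 1 array gave 3163 to 11517 for Cy/Cy and 3667 to 11685 for Cy/+. The ratio at 7 minus 3 days had 0 calls with the software's log ratio and 0 with the series table, 233 with median centring, 22 without background subtraction, 22 without the filter and 9 with only probes above background everywhere. With 1 array left out it had no residual degrees of freedom and was not tested. Over the pools there were 0 calls with the software's signals, 593 with the reference from the arrays labelled +/+, 559 with no replicate block for the pool, and 0 (without the reference) to 4169 (without Cy/+) with 1 pool left out, 54 without Cy/Cy. The Cy3 comparison of ages had 841 with the software's signals, and the arrays labelled +/+ had 6817 with its log ratio.

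Median centring moved the median log2 ratio of all probes to 0.17 in Cy/Cy and 0.19 in Cy/+, against 0.0054 and 0.0046 after loess, and turned the sign against the own reference in Cy/Cy for Rbp4 (0.036), Ttr (-0.18), Stra6 (-0.032), Lrat (0.30), Bco1 A_44_P474388 (0.0040), Aldh1a2 (0.39) and Crabp1 (0.13), and in Cy/+ for Rbp4 (0.16), Ttr (-0.27), Lrat (0.34), Aldh1a2 (0.45), Crabp1 (0.034) and Crabp2 (0.40). It did so for Cy/Cy minus Cy/+ in Lrat (-0.044), Aldh1a1 (-0.012) and Aldh1a2 (-0.061), and between ages in Stra6 (-0.058), Bco1 A_44_P474388 (0.14) and Aldh1a2 (0.11). With the software's log ratio, and in the series table, Lrat in Cy/Cy minus the arrays labelled +/+ was 0.0017. Leaving out 1 array changed signs within these ranges. In Cy/Cy they were -0.78 to 0.32 for Rbp4, -0.45 to 0.43 for Lrat, -0.16 to 0.15 for Bco1 A_44_P222122, -0.034 to 0.030 for Aldh1a2, -0.053 to 0.024 for Crabp1 and -0.14 to 0.18 for Crabp2. In Cy/+ they were -0.78 to 0.43 for Rbp4, -0.22 to 0.16 for Lrat, -0.27 to 0.37 for Aldh1a1, -0.12 to 0.075 for Aldh1a2 and -0.58 to 0.39 for Crabp2. For Cy/Cy minus Cy/+ they were -0.66 to 0.54 for Rbp4, -0.022 to 0.18 for Ttr, -0.42 to 0.46 for Lrat, -0.21 to 0.44 for Aldh1a1, -0.077 to 0.11 for Aldh1a2 and -0.37 to 0.60 for Crabp2. For Cy/+ minus the arrays labelled +/+, Bco1 A_44_P474388 ran from -0.11 to 0.21, and over the pools Aldh1a1 ran from -0.11 to 0.21. Stra6 and Ttr lay near background, which limits how precisely they were measured.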

Other observations

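Besides Rbp4, 13 probes were called in the comparison of mutant ratios between ages. Among those with a gene name, Igfbp1 (1.60) and Hmox1 (1.37) had a higher ratio at 7 days than at 3 days, as Rbp4 did (1.15), on the log2 scale. The ratio was lower at 7 days for Stfa3 (-1.78), Csta (-1.66), Cryba1 (-1.34), Myh8 (-1.20) and Lect1 (-1.06); Stfa3 and Csta carry the suffix predicted in the array file. Their adjusted p-values ran from 0.0146 to 0.0498.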
